A study of Homo sapiens with 6 samples.

Results

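The human alcohol dehydrogenase genes ADH1A, ADH1B, ADH1C, ADH4, ADH5, ADH6 and ADH7 were followed on 6 arrays of the hepatoma line Huh7. The 7 genes were chosen by gene symbol as a family, after the difference of ADH6 between these arrays was already known. The silenced against control values of the family are therefore given as a description and not as a test. The family made up 7 of the 18132 genes measured and 20 of the 49293 probe sets, a probe set being a group of probes on the array that is read as 1 value. In 3 arrays the cells were labelled as silenced for KCa3.1, and 3 arrays came from control cells of the same line. KCa3.1 is the intermediate-conductance potassium channel opened by calcium, and KCNN4 is its gene. All cells were growing logarithmically. The means of silencing, and whether the replicates were separate cultures or clones, are not given in the labels. A p-value here thus measures no more than how far these arrays vary, and that variation may be technical.

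Alcohol dehydrogenases of this family are zinc enzymes of the cytosol that oxidise alcohols to aldehydes or ketones with NAD+, and work in pairs of subunits. ADH1A, ADH1B and ADH1C encode the class I subunits that carry most of the ethanol oxidation of the adult liver, and ADH4 encodes the class II liver enzyme. ADH5 encodes class III, which is made in nearly all tissues and acts on the glutathione adducts of formaldehyde and of nitric oxide. ADH6 encodes class V, known mainly as a transcript of the liver and little studied as a protein. ADH7 encodes class IV, an enzyme of the stomach and upper digestive tract with high activity on retinol. Aldehyde dehydrogenases take the products on to acids, so acetaldehyde becomes acetate and retinaldehyde becomes retinoic acid.

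The promoters of ADH6 and ADH5 are shown because these were the family's genes with the highest differences, and because the windows are unlike each other. Each window runs from 250 bases before to 50 after the start of the gene, 5′ to 3′ on the minus strand, from RefSeq on GRCh38.p14. Capitals mark the motif matches described after the sequences.
ADH6, chr4:99219197-99219496: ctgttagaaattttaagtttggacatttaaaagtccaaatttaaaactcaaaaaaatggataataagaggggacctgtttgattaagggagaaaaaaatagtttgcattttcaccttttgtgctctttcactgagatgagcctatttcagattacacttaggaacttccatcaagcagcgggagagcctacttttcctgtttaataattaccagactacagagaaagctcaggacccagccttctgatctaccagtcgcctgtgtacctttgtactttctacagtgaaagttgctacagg
ADH5, chr4:99088739-99089038: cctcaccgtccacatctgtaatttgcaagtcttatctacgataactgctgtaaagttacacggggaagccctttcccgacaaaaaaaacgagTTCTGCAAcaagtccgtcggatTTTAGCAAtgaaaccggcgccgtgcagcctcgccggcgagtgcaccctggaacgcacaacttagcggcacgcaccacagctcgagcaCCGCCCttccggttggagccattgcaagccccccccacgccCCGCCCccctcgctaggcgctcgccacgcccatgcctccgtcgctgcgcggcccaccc
The ADH5 window had a GC content of 61.3% and 29 CpG pairs, and the ADH6 window 38% and 2 CpG pairs, against medians of 58.7% and 14 over all 35116 RefSeq windows. The other 5 genes had between 35% and 39% in the windows of their first listed starts.

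The class I promoters are shown as a stretch of 60 bases each, from base 161 to base 220 of their windows, because they show how close these genes are in sequence.
ADH1A, chr4:99291016-99291075: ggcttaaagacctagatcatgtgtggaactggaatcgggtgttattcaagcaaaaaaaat
ADH1B, chr4:99321432-99321491: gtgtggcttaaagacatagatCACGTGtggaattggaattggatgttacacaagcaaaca
ADH1C, chr4:99352777-99352836: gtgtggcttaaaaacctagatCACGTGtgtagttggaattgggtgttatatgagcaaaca
Over the whole windows the class I promoters were 82.3% to 82.9% identical to each other in a global alignment. Every other pair of the family lay between 45% and 52.5%, with gaps that lengthened the alignments to between 338 and 374 positions. The identity of unrelated windows was not computed, so these values are not read as likeness. The capitals here are an E-box, CACGTG, a sequence that upstream stimulatory factors are known to bind. It stood in the windows of ADH1B and ADH1C and in 7.26% of all windows.

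Among further motifs, each searched on both strands, the C/EBP letters TTGCNNAA stood in the windows of ADH4, ADH5 and ADH7 and in 10.5% of all windows. The GC box GGGCGG stood in that of ADH5 and in 45.0% of all windows. TATAAA stood in those of ADH4 and ADH7 and in 11.5%. The HNF4 letters CAAAGTCCA, the FOXA letters TGTTTAC and the antioxidant response core TGACNNNGC stood in 0.384%, 3.42% and 13.3% of all windows and in 0 of the 8 windows of the family, in which ADH7 has 2 starts. The window of ADH6 held 0 matches to any of these motifs. These are matches of letters and not sites of binding.

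The deposited values are log2 values with a median of 0 on each array, given relative to a baseline that is not stated, so they show differences between arrays and not how strongly a gene was expressed. For the same reason the labelled cell type could not be checked by the level of its markers. Across all genes, 13.3% were called at a limma adjusted p under 0.05, 7.14% higher and 6.19% lower in silenced cells, and in 29.3% all arrays of one group lay above all arrays of the other. Across probe sets, 10.7% were called, 5.82% higher, and in 26.7% the groups did not overlap. KCNN4 itself read -0.055, 0.089 and 0.011 in silenced cells, against -0.006, 0.126 and -0.073 in control cells. The difference was -3e-04 (SE 0.069, limma adjusted p = 0.999, two-sided exact permutation p = 1, where 0.1 is the smallest possible). Its 95% interval ran from -0.16 to 0.16, so a fall of KCNN4 RNA was not seen on the arrays labelled as silenced, and every direction given here is between arrays as labelled.

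ADH6 had the highest difference of the family and was 2.17-fold higher in silenced cells. Its 3 probe sets averaged 0.44, 0.22 and 0.43 on the 3 silenced arrays, against -0.81, -0.69 and -0.76 on the 3 control arrays. All silenced arrays lay above all control arrays, by more than the spread within either group. The group means were 0.36 ± 0.12 in silenced cells and -0.76 ± 0.061 in control cells (SD, n = 3 each). The difference was 1.12 on the log2 scale (SE 0.073, 95% interval 0.95 to 1.28). ADH6 ranked 47 among all 18132 genes by the size of the difference upward. In a culture measured as a whole, more cells that make a transcript and more of it per cell cannot be told apart.

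The 3 probe sets of ADH6 gave nearly the same difference. The probe set 11744437_a_at read 0.49, 0.31 and 0.33 in silenced cells, against -0.66, -0.69 and -0.75 in control cells, a difference of 1.08. For 11735686_a_at the values were 0.34, 0.14 and 0.47 in silenced cells, against -0.98, -0.75 and -0.61 in control cells, a difference of 1.10. The highest difference, 1.18, was that of 11751669_a_at, with 0.48, 0.20 and 0.49 in silenced cells, against -0.80, -0.63 and -0.93 in control cells. In all 3 probe sets silenced replicate 2 was the lowest of the silenced arrays, and it was nevertheless above every control array. None of the 3 held an exact 0 on any array.

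**Figure D1:**
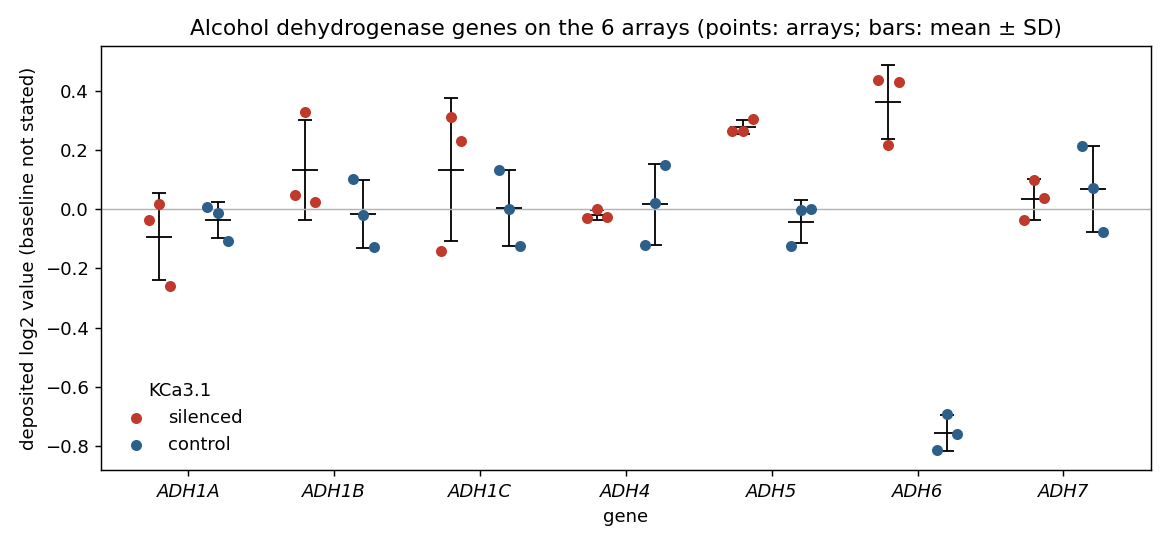
Deposited log2 value, baseline not stated (y axis), of each alcohol dehydrogenase gene (x axis) on the 3 silenced arrays (red, left) and the 3 control arrays (blue, right), with points for arrays and bars for the mean ± SD. The groups lie apart for ADH6, with means of 0.36 in silenced and -0.76 in control cells, and for ADH5, with 0.28 and -0.043, and overlap for the other 5 genes.

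ADH5, the class III enzyme, was 1.25-fold higher in silenced cells. The mean of its 2 probe sets with 1 gene symbol was 0.26, 0.27 and 0.31 on the silenced arrays, against -0.13, -0.002 and 0.000 on the control arrays. The silenced arrays lay close together and above all control arrays. The group means were 0.28 ± 0.024 in silenced cells and -0.043 ± 0.072 in control cells (SD, n = 3 each), and the difference was 0.32 (SE 0.057, 95% interval 0.19 to 0.45).

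A pair of further probe sets carries the symbols of ADH5 and of its pseudogene ADH5P4 on chromosome 6, so that the signals of both cannot be told apart there. Of these, 11716393_x_at read 0.34, 0.31 and 0.37 in silenced cells, against -0.014, 0.093 and 0.000 in control cells, a difference of 0.31. The other, 11758757_at, read 0.057, 0.076 and 0.24 in silenced cells, against -0.26, 0.000 and 0.032 in control cells, a difference of 0.20 that was not called. In all 4 probe sets of ADH5 the groups did not overlap, and 3 of the 4 were called. Of all probe sets, 26.7% had groups apart and 10.7% were called. The 3 called ones are named _s_at or _x_at, and 11758757_at was the only one named _at. By the platform annotation, 11716393_x_at, 11758757_at and the single-symbol 11716392_s_at are listed under the same target record. These 3 are therefore not taken as separate readings. Whether 11716394_x_at, listed under another record, shares probes with them was not tested. The call of 11716394_x_at, with a difference of 0.29, was lost without any 1 of the 6 arrays, where it lay between 0.23 and 0.32, and held under 2 of 10 alternatives. That of 11716393_x_at was lost without silenced replicate 1 or 3 or control replicate 3, where it lay between 0.30 and 0.31.

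The class I genes ADH1A, ADH1B and ADH1C were not called as genes, and their silenced and control values overlapped. ADH1A read -0.036, 0.018 and -0.26 in silenced cells, against 0.008, -0.013 and -0.11 in control cells, a difference of -0.055 (SE 0.079, 95% interval -0.24 to 0.12). ADH1B read 0.046, 0.33 and 0.023 in silenced cells, against 0.10, -0.020 and -0.13 in control cells, a difference of 0.15 (SE 0.094, 95% interval -0.064 to 0.36). Its silenced replicate 2 stood above the other 5 arrays, and the difference was 0.051 without it, 0.092 without control replicate 3 and -0.060 with specific probe sets only, those not named _s_at or _x_at. ADH1C read -0.14, 0.31 and 0.23 in silenced cells, against 0.13, 0.000 and -0.12 in control cells, a difference of 0.13 (SE 0.12, 95% interval -0.13 to 0.40). Silenced replicate 1 was the lowest of all 6 arrays for this gene and the other silenced arrays the highest. With 1 silenced array left out, the difference of ADH1C ranged from 0.042 (replicate 2 omitted) to 0.27 (replicate 1 omitted), and with control replicate 3 omitted it was 0.067.

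The 5 probe sets of ADH1B differed from each other. Those named _x_at, a suffix that Affymetrix gives where probes can also match other transcripts, had differences of 0.21, 0.25 and 0.40. Those named _at, without that mark, had differences of -0.094 and -0.025. The one that was called, 11747167_x_at, read 0.34, 0.40 and 0.092 in silenced cells, against 0.000, -0.097 and -0.26 in control cells. Its call was lost without silenced replicate 1 or 2 or any 1 of the 3 control arrays, where the difference lay between 0.33 and 0.45. Among the 10 class I probe sets, the 6 named _x_at or _s_at had a median difference of 0.23 and the 4 named _at one of -0.048.

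One probe set, 11722994_s_at, is shared by ADH1A, ADH1B and ADH1C and cannot be given to any of them. It read 0.036, 0.22 and 0.089 in silenced cells, against 0.000, -0.25 and -0.30 in control cells. The groups did not overlap, although the lowest silenced array was only just above the highest control array. The difference was 0.30 (SE 0.093, 95% interval 0.083 to 0.51) and it was not called. It was called without control replicate 1, where it was 0.39. The RNA of class I genes cannot be split among the 3 genes with such a probe set.

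ADH4, the class II liver enzyme, was measured by 1 probe set and read -0.031, 0.000 and -0.026 in silenced cells, against -0.12, 0.021 and 0.15 in control cells. The silenced values lay inside the range of the control values, and the difference was -0.035 (SE 0.073, 95% interval -0.20 to 0.13). ADH7, the class IV enzyme, was measured by 2 probe sets. The probe set 11728753_at read 0.033, -0.089 and 0.075 in silenced cells, against -0.010, 0.034 and 0.000 in control cells. The probe set 11755742_a_at varied more, with -0.11, 0.29 and 0.000 in silenced cells, against 0.44, 0.11 and -0.16 in control cells. The groups overlapped in both, and the gene's difference was -0.036 (SE 0.080, 95% interval -0.22 to 0.14).

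**Figure D2:**
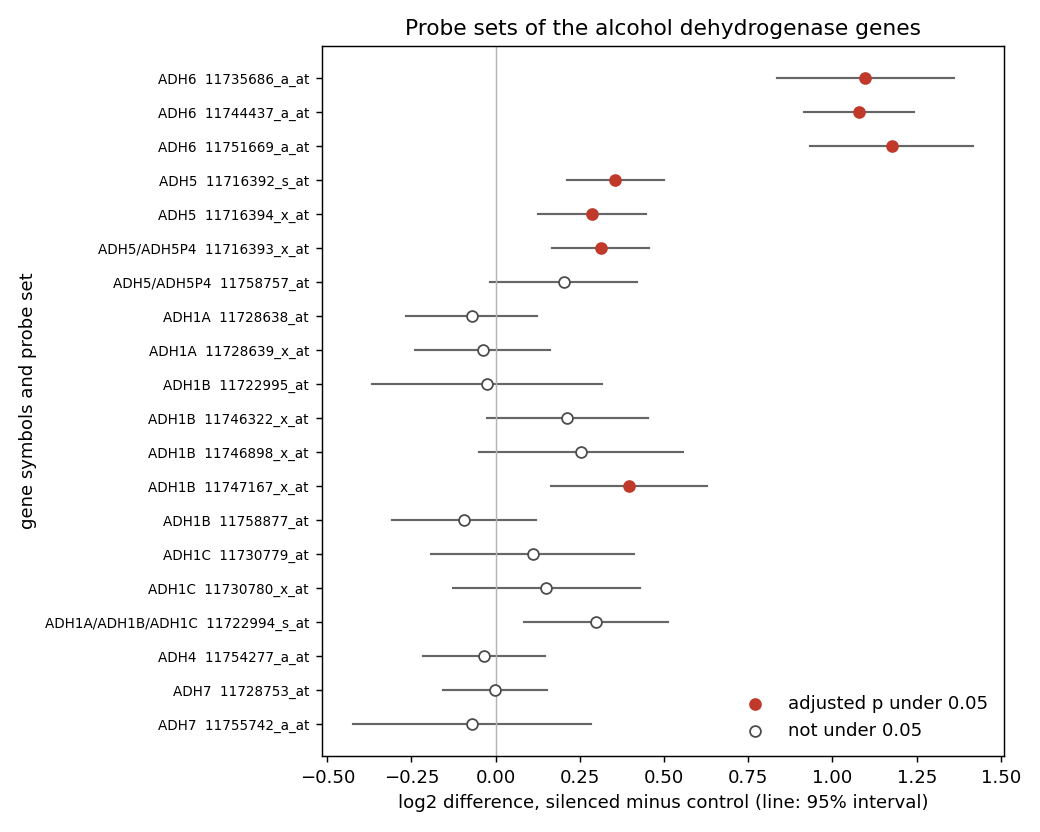
Log2 difference, silenced minus control (x axis), of the 20 probe sets of the family (y axis), with lines for the 95% interval and filled points for an adjusted p under 0.05 over all probe sets. The 3 probe sets of ADH6 lie between 1.08 and 1.18, and the other 17 between -0.094 and 0.40.

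Of the 7 genes, 2 were called, both higher, where 13.3% of all genes were called and 7.14% were called higher. The groups did not overlap in the same 2 genes, where 29.3% of all genes had groups apart. Of the 20 probe sets, 7 were called, all of them higher, where 5.82% of all probe sets were called higher, and the groups did not overlap in 10, where 26.7% of all probe sets had groups apart. The choice of the family used this comparison, so nothing is read from these counts. The median difference over the 7 genes was 0.13, which is the value of ADH1C, and over all genes -0.0058. The family's median lay between 0.042 without silenced replicate 2 and 0.20 without control replicate 1. Leaving out the arrays numbered 3 gave 0.082 (silenced) and 0.067 (control), and the 6 genes with specific probe sets gave -0.036. Ordered by difference, ADH6 came first and was followed by ADH5, ADH1B, ADH1C, ADH4, ADH7 and ADH1A. The 95% interval of ADH6 lay above that of every other gene, while those of ADH5 and ADH1B, and of all later neighbours in the order, overlapped. In 17 of the 20 probe sets at least 1 array held an exact 0, as in 80.6% of all probe sets, which can narrow the spread within a group.

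The family forms 1 cluster on chromosome 4, from 99070978 to 99435342 on GRCh38.p14, a length of 364 kb. The genes stand in the order ADH5, ADH4, ADH6, ADH1A, ADH1B, ADH1C and ADH7, with 0 other protein-coding genes between them. The 2 called genes were thus not next to each other, since ADH4 lies between them and had a difference of -0.035. Of the 10 nearest protein-coding genes on each side, 19 were measured. Among these 5 were higher, 1 was lower and 13 did not pass (limma, adjusted over all genes), with a median difference of 0.054. Over all genes, 7.14% were called higher and 6.19% lower.

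MTTP, which encodes the microsomal triglyceride transfer protein that loads lipid onto apolipoprotein B, had the largest difference of the neighbours. It lies 129 kb beyond ADH7, with C4orf17 and TRMT10A in between. It read 0.35, 0.41 and 0.31 in silenced cells, against -1.37, -1.40 and -1.13 in control cells. The groups lay far apart, and MTTP was 3.15-fold higher (log2 difference 1.66, SE 0.079, limma adjusted p = 5.4e-06). C4orf17 and TRMT10A did not pass, with differences of -0.069 and 0.14.

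On the other side, METAP1, a methionine aminopeptidase gene that ends 8.17 kb before ADH5, did not pass, with a difference of 0.13 (SE 0.057, limma adjusted p = 0.18). EIF4E, which encodes the cap-binding protein of translation, did not pass either, with 0.054. The tetraspanin gene TSPAN5 was 1.88-fold higher (log2 difference 0.91, SE 0.057, limma adjusted p = 2.1e-05) and RAP1GDS1, which encodes a regulator of small GTPases, 1.23-fold (limma adjusted p = 0.0042). On the side of MTTP, DDIT4L, a relative of the stress gene DDIT4 that starts 751 kb beyond ADH7, was 1.48-fold higher (limma adjusted p = 0.0021). BMPR1B, a receptor gene of bone morphogenetic proteins on the side of ADH5, had a difference of 0.23. Its call was lost without silenced replicate 2 or 3 or any 1 of the control arrays, where the difference lay between 0.19 and 0.23. The call held under 5 of 13 alternatives, and the difference was 0.066 with specific probe sets only and 0.38 with the most variable probe set. LAMTOR3, a scaffold gene of lysosomal mTORC1 signalling that starts 443 kb beyond ADH7, had a difference of -0.22. Its call held under 2 of 13 alternatives, with values between -0.26 and -0.18.

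**Figure D3:**
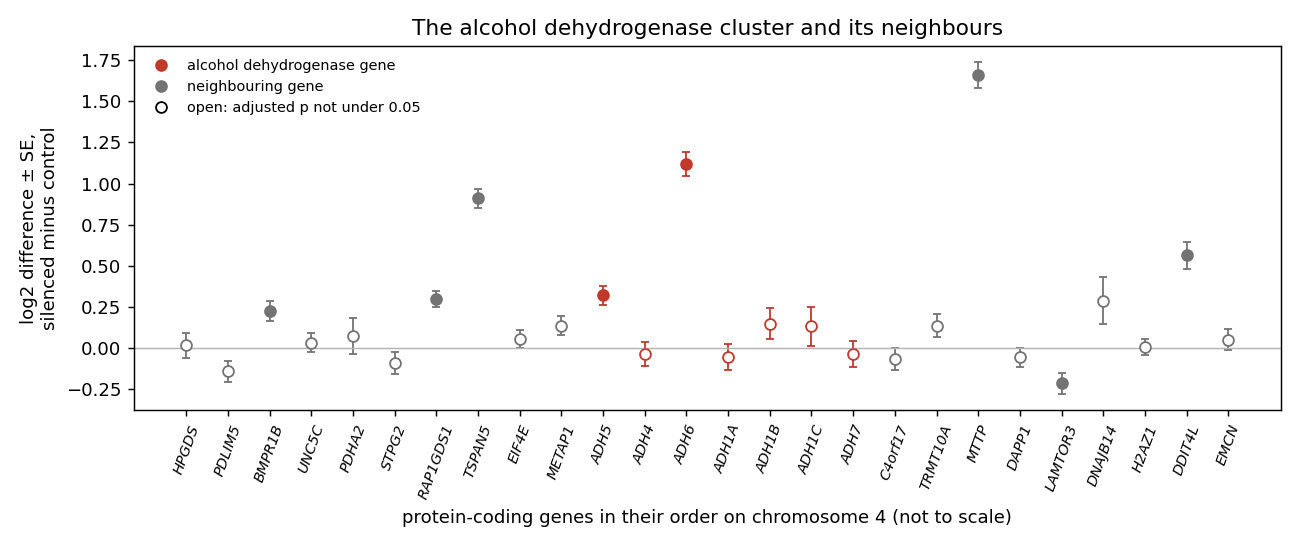
Log2 difference ± SE, silenced minus control (y axis), of the alcohol dehydrogenase genes (red) and the measured neighbouring genes (grey) in their order on chromosome 4 (x axis, not to scale), filled where the adjusted p was under 0.05. ADH6 at 1.12 stands between ADH4 at -0.035 and ADH1A at -0.055, and MTTP at 1.66 is the highest point.

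The genes whose 6 values were most like those of ADH6, by Euclidean distance over the 6 arrays after subtracting the control mean, were SLC22A9, PTGER4, SRXN1, APOA1 and FYN, with distances from 0.12 to 0.17. SLC22A9 encodes an organic anion transporter of the liver. It read 0.88, 0.79 and 0.88 in silenced cells, against -0.30, -0.23 and -0.32 in control cells. PTGER4 encodes a prostaglandin E2 receptor, SRXN1 sulfiredoxin, APOA1 the main protein of high-density lipoprotein, and FYN a Src family kinase. These 5 were 2.18-fold to 2.22-fold higher in silenced cells, close to the 2.17-fold of ADH6. The measure takes up the size of the group difference, so any gene that differs by about the same amount comes out near.

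A list around ethanol and acetaldehyde oxidation held 9 measured genes beside the alcohol dehydrogenases, among them acyl-CoA synthetases and a fatty aldehyde dehydrogenase. Of these, 4 were higher, 0 lower and 5 did not pass (limma, adjusted over all genes). The share called was 44.4%, against 13.3% of all genes. The higher ones were ALDH3A2, ACSS3, ALDH1A1 and ALDH1B1. The median difference was 0.16, against -0.0058 over all genes. This list and the later lists of linked genes were chosen with earlier results of these data known. Nothing is therefore read from their shares called. ALDH3A2, which encodes the fatty aldehyde dehydrogenase of the endoplasmic reticulum, read 0.70, 0.69 and 0.75 in silenced cells, against -0.065, 0.016 and 0.016 in control cells. It was 1.65-fold higher (log2 difference 0.72, SE 0.054, limma adjusted p = 5.7e-05). ALDH1A1, which encodes a cytosolic enzyme of acetaldehyde and retinaldehyde, was 1.56-fold higher (log2 difference 0.64, SE 0.052, limma adjusted p = 8.5e-05). Its means were 0.32 ± 0.015 in silenced cells and -0.32 ± 0.035 in control cells (SD, n = 3 each). The acyl-CoA synthetase gene ACSS3 was 1.56-fold higher (limma adjusted p = 0.00014). ALDH2, the mitochondrial enzyme that clears most acetaldehyde in the liver, did not pass, with a difference of 0.16 (SE 0.070, limma adjusted p = 0.2). CYP2E1, the ethanol-oxidising cytochrome, and catalase (CAT) had differences of 0.014 and -0.035 and did not pass.

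Of all 19 aldehyde dehydrogenase genes, 5 were higher, 1 was lower and 13 did not pass, with a median difference of 0.097. The share called was 31.6%, against 13.3% of all genes. ALDH1A1, ALDH1B1, ALDH2 and ALDH3A2 also stand on the ethanol and acetaldehyde list, so the counts of these lists overlap. ALDH4A1, which encodes an enzyme of proline breakdown, was 1.35-fold higher (log2 difference 0.43, SE 0.062, limma adjusted p = 0.002). ALDH3B1 was the lower one, with a difference of -0.40 (SE 0.076, limma adjusted p = 0.0082). Read from their most variable probe sets, the differences of ALDH4A1 and ALDH3B1 were 0.76 and -0.61. The calls of ALDH1B1 and ALDH5A1, with differences of 0.27 and 0.20, did not hold on fewer arrays. That of ALDH1B1 was lost without silenced replicate 1 or 3 or control replicate 1 or 2, where it lay between 0.23 and 0.28, and that of ALDH5A1 without any 1 of the 6 arrays, where it lay between 0.18 and 0.23.

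Of 23 measured genes of retinoid metabolism and its receptors, 2 were higher, 1 was lower and 20 did not pass, and the median difference was -0.011. The share called was 13%, near the 13.3% of all genes, so nothing is read from this count. RDH10, which encodes a retinol dehydrogenase of the microsomes, was 1.43-fold higher (log2 difference 0.52, SE 0.094, limma adjusted p = 0.0069). RDH11, a retinal reductase gene, was 1.22-fold higher (log2 difference 0.29, SE 0.053, limma adjusted p = 0.0065). CYP26B1, which encodes an enzyme that degrades retinoic acid, was lower, with -0.015 ± 0.074 in silenced cells and 0.29 ± 0.049 in control cells (SD, n = 3 each, log2 difference -0.31, limma adjusted p = 0.0096), and its difference was -0.53 in its most variable probe set. The retinoic acid receptor genes RARA, RARB and RARG did not pass, with differences of -0.053, -0.011 and -0.0077.

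A list drawn up around the function of ADH5 held 7 measured genes. Beside formaldehyde and S-nitrosoglutathione handling it took in glutathione synthesis and thioredoxin reductase. Of the 7, 3 were higher, 0 lower, and 4 did not pass, with a median of 0.12. The share called was 42.9%, against 13.3% of all genes. The higher ones were GCLM, TXNRD1 and GCLC. GCLM, which encodes the modifier subunit of the enzyme that starts glutathione synthesis, was 1.37-fold higher (log2 difference 0.45, SE 0.071, limma adjusted p = 0.003). TXNRD1, the cytosolic thioredoxin reductase gene, was 1.28-fold higher (log2 difference 0.36, SE 0.052, limma adjusted p = 0.0021). GCLC, the catalytic subunit gene, had a difference of 0.33, and its call was lost without silenced replicate 1 or 3 or control replicate 2, where it lay between 0.27 and 0.30, and also in its most variable probe set, at 0.50. ESD, which encodes the S-formylglutathione hydrolase that follows ADH5 in formaldehyde oxidation, did not pass, with a difference of -0.16 (SE 0.054, limma adjusted p = 0.091). CBR1, also on this list, had a difference of 0.023 and did not pass.

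Of 11 measured relatives in the medium-chain dehydrogenase and reductase superfamily, 2 were higher, 1 was lower and 8 did not pass. The median was -0.070, and 27.3% were called, against 13.3% of all genes. PTGR1, which encodes prostaglandin reductase 1, was 1.52-fold higher (log2 difference 0.61, SE 0.052, limma adjusted p = 0.00012). CRYZ, which encodes a quinone reductase, had a difference of -0.37, lost as a call without silenced replicate 3 or control replicate 3, where it lay between -0.35 and -0.32. FASN, the fatty acid synthase gene, had a difference of 0.25, no longer called when any 1 silenced array or control replicate 1 or 3 was left out, where it lay between 0.21 and 0.27. The count of called genes on this list was 1 without silenced replicate 3 and 1 without control replicate 3. ADHFE1, an alcohol dehydrogenase gene of the unrelated iron type, did not pass, with a difference of 0.048.

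Of 14 measured transcription factors of hepatocytes or with known sites in alcohol dehydrogenase promoters, 3 were higher, 1 was lower and 10 did not pass. The median was 0.057, and 28.6% were called, against 13.3% of all genes. FOXA1 was 1.58-fold higher (log2 difference 0.66, SE 0.065, limma adjusted p = 0.00024) and FOXA3 1.33-fold (limma adjusted p = 0.0082). NR3C1, the glucocorticoid receptor gene, was lower, with -0.47 ± 0.089 in silenced cells and 0.099 ± 0.14 in control cells (SD, n = 3 each, log2 difference -0.57, limma adjusted p = 0.0018). CEBPD had a difference of 0.54, and its call was lost without silenced replicate 3, where it was 0.46, and also with specific probe sets only and with the most variable probe set. CEBPA and USF1, the genes of factors known to bind alcohol dehydrogenase promoters, did not pass, with differences of 0.026 and 0.037.

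**Figure D4:**
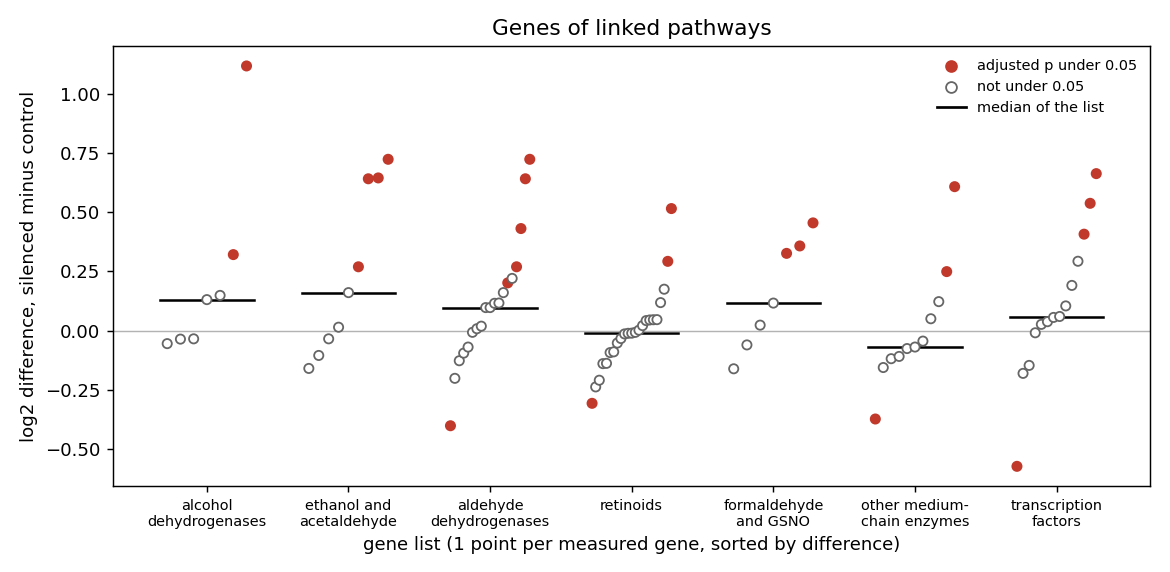
Log2 difference, silenced minus control (y axis), of each measured gene in the family and in 6 lists of linked genes (x axis), filled where the adjusted p was under 0.05, with a line at each list's median. The medians lie between -0.070 for the other medium-chain enzymes and 0.16 for ethanol and acetaldehyde, and ADH6 at 1.12 is the highest point.

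Markers of several cell types were compared in the same way, although every array was labelled as Huh7 cells. Beside these marker counts, 7.14% of all genes were called higher and 6.19% lower. Of 8 measured hepatocyte markers 4 were higher, 0 lower and 4 did not pass, with differences from -0.19 to 1.14, and ALB did not pass at 0.16. The call of FGB among these, at 0.20, did not hold when any 1 silenced array or control replicate 2 or 3 was left out, where it lay between 0.18 and 0.22. The hepatoblast and hepatoma markers AFP, GPC3, SPINK1 and PEG10 were higher in 4 of 4 cases, by 0.43 to 1.30. The bile duct markers KRT7, KRT19, SOX9 and EPCAM were lower in 4 of 4, with differences from -0.50 to -0.31. The calls of SOX9 and EPCAM were each lost without silenced replicate 1 or 2 or control replicate 2 or 3, and that of SOX9 also without silenced replicate 3, where the differences lay between -0.33 and -0.26 and between -0.48 and -0.35.

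Of the 5 fibroblast and 3 endothelial markers 0 passed in either direction, with differences from -0.090 to 0.042 over both lists. Of 4 leukocyte markers 1 passed, LYZ, with a difference of 0.34, lost as a call without silenced replicate 3 or control replicate 1 or 3, where it lay between 0.26 and 0.34. The part of these markers in the values of ADH6 and ADH5 was not tested.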

How the data were processed

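Values came from the 6 arrays of silenced and control Huh7 cells. Total RNA was extracted with Trizol and labelled with biotin, per the labels' protocols. Per the submitters' processing notes, the deposited log2 values are RMA output. The version is not given in the sources used here. The log base was inferred from the values. The baseline they are relative to is not given in the sources used here, and it cancels in a difference where it is shared by all arrays.

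Of 49395 probe sets, 102 control probe sets were left out. Symbols came from the platform annotation: 44988 probe sets had 1, 1832 several and 2473 none here. Each gene's value averaged its single-symbol probe sets, and 1 listed symbol was updated to PTGR3. The silenced minus control difference was fitted by limma 3.58.1 (R 4.3.3) using lmFit and eBayes with group as the term, with Benjamini-Hochberg adjustment over all genes or all probe sets, and called at an adjusted p under 0.05. All adjusted p-values are from limma. The method was tested on simulated data with independent noise. Those data held neither the exact 0 values nor the correlations between arrays seen here, so the test does not cover them.

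The members, lists and tests were chosen with earlier results of these data known. Named were the family, KCNN4, the 10 protein-coding neighbours on each side, the 3 largest called differences of each list, and the 5 genes nearest ADH6. Markers, ADHFE1 and a few further list members were named after their values were seen. Promoters of all 7 genes were matched by symbol in RefSeq and aligned with Biopython 1.88, and 1 motif searched is not reported here. The number of arrays, 3 a group, limits the precision. The alternatives left out each array, used the replicate number as a block, normalised again, and changed the moderation, filter or gene summary.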

Additional observations from a re-analysis of the deposited data

How the results depend on the processing

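ADH6 was called and positive under all 14 alternatives, with differences from 1.05 to 1.19, and ADH5 under all 13 it could be given in, with differences from 0.28 to 0.36. ADH1A, ADH1C, ADH4 and ADH7 were called under 0 of 14. ADH1B was called under 1 of 14, at 0.40 when each gene was read from its most variable probe set. The count of called family genes was 1 with specific probe sets only, because both single-symbol probe sets of ADH5 end in _s_at or _x_at. Leaving out 1 array gave 4 to 6 called probe sets of the family and 3252 to 4592 called probe sets in all, against 7 and 5261. The 4 were reached without silenced replicate 1 and without control replicate 3. The total fell by over 1.5 times without any 1 of the silenced arrays or control replicate 3, to between 3252 and 3479. Leaving out 1 array gave 1641 to 2289 called genes. The replicate numbers did not pair the arrays: over all genes, same-numbered silenced and control arrays deviated from their group means with correlations of -0.096, -0.069 and -0.040. Silenced arrays 1, 2 and 3 each correlated best with control arrays 3, 1 and 2, at 0.38, 0.37 and 0.38, and the cause was not tested. With the replicate block, 2065 genes and 4362 probe sets were called, among them 2 family genes and 6 family probe sets. Values relative to background are not part of the deposited table, so dim probe sets could not be filtered, and leaving out the 25% least variable stood in for that.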
